A study of Mus musculus with 10 samples.

Results

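The ETO family genes Cbfa2t3, Cbfa2t2 and Runx1t1 were taken by name as the corepressor genes whose proteins bind E-proteins, and they are 3 of the 21887 protein-coding genes of the annotation. For each gene, the summits of HEB binding within 500 kb of the gene body were collected. A summit is the single base at which a peak of ChIP-seq signal is highest. The siNT list held 2 such summits out of 560 and the siID4 list 4 out of 1489. Cbfa2t3 contained a summit in both lists, Runx1t1 had summits at a distance in both, and Cbfa2t2 had none in either list. The sites were selected on the measured summit positions in these lists and the genes were chosen with those positions known, so positions, scores and ranks are given as a description and not tested.

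HEB, the product of Tcf12, is an E-protein: a basic helix-loop-helix transcription factor that binds CANNTG sites (E-boxes) as a dimer. ID proteins such as ID4 have the helix-loop-helix but no basic DNA-binding region, so their dimers with E-proteins do not bind DNA. ETO family proteins do not bind DNA by a sequence of their own. They are brought to genes by transcription factors, E-proteins among them, whose activation domain they contact through a conserved N-terminal region, and they carry a C-terminal zinc finger that recruits corepressor complexes with histone deacetylases. Cbfa2t3 encodes Eto2, best known for its complexes with E-proteins and Tal1 in blood precursors. Cbfa2t2 encodes Mtgr1, needed for secretory cells of the intestine and, with Prdm14, for germ cells. Runx1t1 encodes Eto itself, the partner of RUNX1 in a fusion protein of acute myeloid leukaemia.

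HEB was immunoprecipitated from Comma-Dβ cells, an established mouse mammary epithelial line, at passage 28. All cells of the 2 HEB groups were transfected with 20 nM siRNA and harvested 48 h later: 3 libraries received a pool against Id4 (siID4) and 3 a non-targeting pool (siNT), and the labels name different product lines for the 2 pools. The labels also list 4 input libraries, without antibody, that serve both groups. No siRNA is recorded for these inputs, so whether their cells were transfected is not known here. The authors deposited 1 list of summits for each siRNA, so no value here has a replicate or an error, read depth is unknown, and the knockdown of Id4, the expression of any gene and the identity of the cells cannot be read from the lists. A summit's score, read from the layout as −log10 of a q value, rises with the depth of its list, so it was used only to rank summits within a list. Rank 1 is the highest score, tied scores share the mean of their ranks, and a percentile is the same order counted from the lowest score, as a percent of the list.

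The sequences before the annotated starts of Cbfa2t3 are shown because the gene held the summits of highest score among the 3 genes and because E-boxes can be read in them. The promoter table from RefSeq (GRCm38.p6, the assembly behind mm10) gave 2 starts for Cbfa2t3, both on the minus strand, and 1 for Cbfa2t2, on the plus strand; Runx1t1 was not matched. Each line gives the 250 bases before a start, 5′ to 3′, with every match to CANNTG in capitals.
Cbfa2t3, outer start, minus strand of chr8:122699110-122699359: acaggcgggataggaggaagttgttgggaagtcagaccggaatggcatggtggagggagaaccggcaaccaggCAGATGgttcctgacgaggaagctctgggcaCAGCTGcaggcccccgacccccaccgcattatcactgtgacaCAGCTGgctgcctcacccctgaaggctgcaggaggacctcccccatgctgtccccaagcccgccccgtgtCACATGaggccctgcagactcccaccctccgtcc
Cbfa2t3, inner start, minus strand of chr8:122678176-122678425: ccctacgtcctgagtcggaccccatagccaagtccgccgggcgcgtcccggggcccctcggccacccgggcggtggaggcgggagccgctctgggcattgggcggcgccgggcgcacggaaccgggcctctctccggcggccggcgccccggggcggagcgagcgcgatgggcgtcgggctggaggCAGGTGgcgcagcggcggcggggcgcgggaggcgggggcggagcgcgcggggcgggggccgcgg

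The window before the outer Cbfa2t3 start held 4 matches to CANNTG. They were CAGATG at 177 to 172 bases before the start, CAGCTG at 146 to 141 and again at 104 to 99, and CACATG at 34 to 29. Of 32851 windows of this length in the table, 66.2% held at least 1 match to CANNTG and 3.84% held 4 or more. CAGCTG, which reads the same on both strands, was present in 13.0% of windows and 2 or more times in 1.26%. The window before the inner start held 1 match, CAGGTG at 64 to 59 bases before the start, which is CACCTG on the other strand; CACCTG on either strand was present in 17.2% of windows. Matches to CAGCTG and CACCTG are also matches to CANNTG. The Cbfa2t2 window (chr2:154436234-154436483) had no CANNTG match, which says only that these letters are not in those 250 bases. None of the 3 windows contained a summit of either list, and a match in them is a description of the sequence and not a binding site. All 3 windows overlap the annotated gene bodies, which also span transcripts with other starts.

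Cbfa2t3 spans bases 122625136 to 122699332 of chromosome 8, or 74.2 kb. Its siID4 summit fell on base 122661264 with a score of 82.2, and its siNT summit on base 122661275 with a score of 44.4. The 2 positions were 11 bp apart, the siID4 summit lying at the lower coordinate. Both were near the middle of the gene, 51.3% of the way from its 5′ end. They lay 16.9 kb downstream of the inner annotated start and 37.8 kb downstream of the outer one, so neither summit was at a listed promoter. Whether the site is exonic or intronic was not determined, because the annotation used here gives gene ends only.

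The Cbfa2t3 summit stood near the top of each list. It ranked 20 of 1489 in the siID4 list (percentile 98.7) and 32 of 560 in the siNT list (percentile 94.5). Of the 19 siID4 summits with higher scores, 11 lay on unplaced scaffolds, and of the 31 higher siNT summits 13 did. Among summits on assembled chromosomes the ranks were 9 of 1394 and 19 of 483. No other summit on chromosome 8 scored higher in either list, out of 61 siID4 and 30 siNT summits there. Among protein-coding genes ordered by the highest score inside them, Cbfa2t3 was number 2 of 428 in the siID4 list, after the histone gene H3f3b, and number 6 of 156 in the siNT list.

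A summit inside the gene body was uncommon among genes in general. It was found for 1.96% of protein-coding genes in the siID4 list and for 0.713% in the siNT list. A summit of either list was found inside 2.19% of genes, a summit of both inside 0.475%, and a shared site, meaning summits of the 2 lists within 200 bp of each other, inside 0.352%. Genes with a summit inside were long: their median length was 73.5 kb in the siID4 list and 87.8 kb in the siNT list, against 17.2 kb for all protein-coding genes. Cbfa2t3 lies between those medians for bound genes, and 15.5% of protein-coding genes are longer. Among the 3955 genes of 50 to 200 kb, a class chosen after the data were seen that holds all 3 ETO family genes, 4.02% contained an siID4 summit and 1.59% an siNT summit. Only Cbfa2t3 of the 3 was in these groups. Cbfa2t2, with a body of 103 kb, and Runx1t1, with 152 kb, are longer than Cbfa2t3 and contained none.

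**Figure D1:**
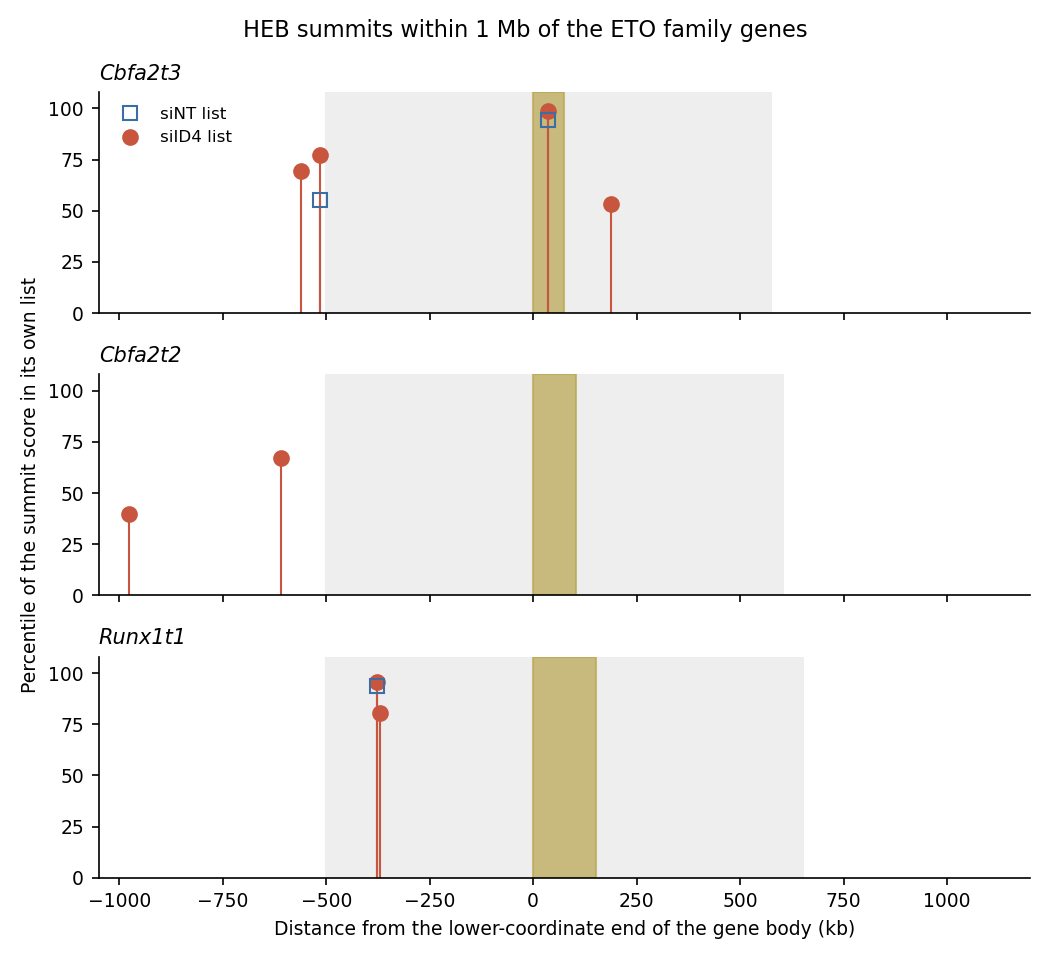
HEB summits within 1 Mb of each ETO family gene, plotted by distance from the lower-coordinate end of the gene body in kb (horizontal axis) and by percentile of the score in its own list (vertical axis). Filled circles are siID4 summits, open squares siNT summits, the gold band is the gene body and the grey band the 500 kb on either side; at Cbfa2t3 the pair lies inside the gene at percentiles 98.7 and 94.5, at Runx1t1 it lies outside at 95.7 and 93.5, and the grey band of Cbfa2t2 is empty.

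A further siID4 summit lay 114 kb from Cbfa2t3 at the side of its 5′ end, on base 122813396. It scored 4.47, rank 700 of 1489 (percentile 53.1), and lay inside Acsf3, which encodes a mitochondrial acyl-CoA synthetase. The nearest siNT summit was the one inside Cbfa2t3, 152121 bp away, so the site was in the siID4 list alone. With the siID4 list cut into 4 equal parts by score, the part to which it belongs runs from 4.31 to 7.71, and 12.1% of the summits in it had an siNT summit within 200 bp. Most siID4 summits of such scores were, like this one, without an siNT counterpart.

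Runx1t1 spans bases 13742628 to 13895056 of chromosome 4, and its summits all lay on the lower-coordinate side. A shared pair was found on base 13364943 in the siID4 list, with a score of 30.0, and on base 13364920 in the siNT list, with a score of 35.0. These lay 377.7 kb from the gene and 23 bp from each other, the siID4 summit at the higher coordinate. The siID4 summit ranked 65 of 1489 (percentile 95.7). The siNT summit ranked 37.5 of 560 (percentile 93.5), a rank it shared with a summit of equal score. On assembled chromosomes the ranks were 46 of 1394 and 24 of 483. On chromosome 4, 6 of 62 siID4 summits and 3 of 33 siNT summits scored higher.

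A second siID4 summit lay 7559 bp closer to Runx1t1, on base 13372502, at 370.1 kb from the gene. It scored 9.68, rank 292.5 of 1489 (percentile 80.4), and its nearest siNT summit was 7582 bp away. It belonged to the highest of the 4 parts of the siID4 list, from 7.72 upwards, in which 57.6% of summits were shared with the siNT list. This summit was among the remainder.

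The Runx1t1 summits lay outside every annotated gene. Runx1t1 was the nearest protein-coding gene to all of them, but Triqk, the gene of a small membrane protein, was almost as near on the other side. From the shared pair the distances were 377685 bp to Runx1t1 and 383458 bp to Triqk for the siID4 summit. The stretch between the 2 genes measured 761 kb and held no other protein-coding gene, 9 annotated genes of other kinds, 2 siID4 summits and 1 siNT summit. Of 19697 stretches between neighbouring protein-coding genes, 2.15% were longer. The nearest annotated gene of any kind was Gm46880, a long non-coding RNA gene, 57.5 kb from the siID4 summit of the pair. The link to Runx1t1 is one of distance only, and no value in these lists ties the site to either flanking gene.

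Distance from annotated starts also separated the sites. The Cbfa2t3 pair lay 16.9 kb from the nearest start in the promoter table, against a median of 27.6 kb over 1391 siID4 summits and 24.8 kb over 481 siNT summits. The Runx1t1 pair lay 222 kb from one, farther than 91.4% of siID4 summits and 94.2% of siNT summits. That distance depends on which starts the promoter table holds. It has none for Runx1t1, and the annotated gene Gm46880 lay 57.5 kb from the siID4 summit of the pair. The siID4 summit inside Acsf3 was 10.4 kb from the nearest start.

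Cbfa2t2 spans bases 154436098 to 154539356 of chromosome 2 and had no summit within 500 kb. Its nearest siID4 summit, on base 153826522, lay 609.6 kb away inside Efcab8, with a score of 6.16 and rank 493.5 of 1489. A second siID4 summit, inside Nol4l, lay 978 kb away, with a score of 3.54 and rank 896.5. The nearest siNT summit was 1.41 Mb from the gene. Chromosome 2 as a whole carried 30 siID4 and 15 siNT summits. Without read depth, an empty interval says that no peak passed the authors' limit there, not that HEB was absent.

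An empty interval of this kind was common. A summit within 500 kb was found for 31.1% of protein-coding genes in the siID4 list, 18.7% in the siNT list, 15.3% in both lists and 34.5% in either. A shared site was found within 500 kb of 11.7%. Of the 3 ETO family genes, Cbfa2t3 and Runx1t1 had a shared site within that distance. With 3 genes taken with their sites known, this count is a description. Within 100 kb only Cbfa2t3 of the 3 had summits. At that distance a summit was found for 10.1% of all protein-coding genes in the siID4 list, for 5.16% in the siNT list, for 3.94% in both and for 11.3% in either, and a shared site for 3.04%.

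The median protein-coding gene lay 1135 kb from its nearest siID4 summit and 2356 kb from its nearest siNT summit. All 3 ETO family genes were nearer than the median in both lists. They are also long: 15.5% of protein-coding genes are longer than Cbfa2t3, 10.7% than Cbfa2t2 and 6.51% than Runx1t1. How far length accounts for these distances was not tested. For Cbfa2t2, 35.4% of genes had a nearer siID4 summit and 38.3% a nearer siNT summit. For Runx1t1 these shares were 25.3% and 14.9%. The order of the genes by distance was Cbfa2t3, Runx1t1 and Cbfa2t2 in each list.

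**Figure D2:**
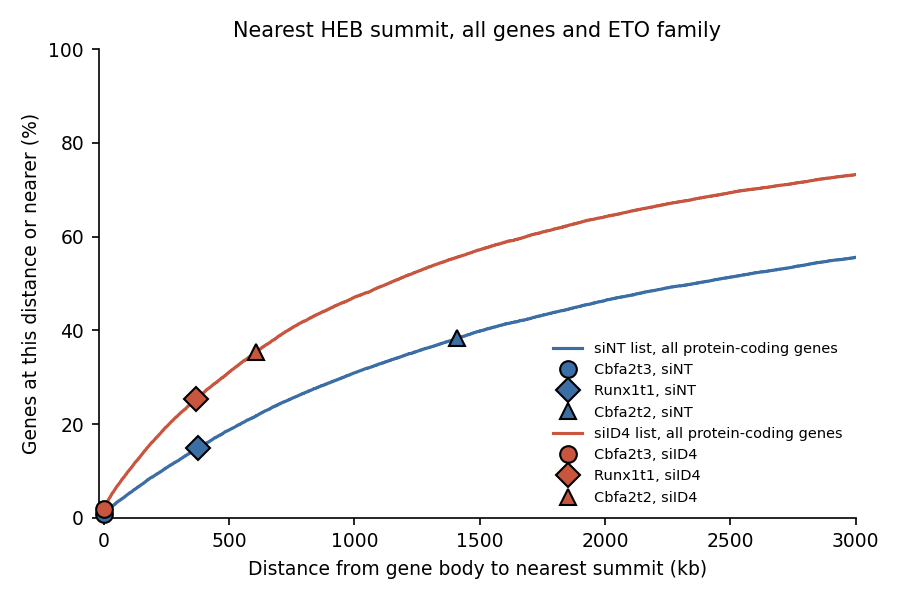
Share of all 21887 protein-coding genes (vertical axis, %) whose nearest summit lies at or within a given distance of the gene body (horizontal axis, kb), as a line for each list, with the ETO family genes as symbols on it. Cbfa2t3 sits at 0, Runx1t1 at 370.1 kb for siID4 and 377.7 kb for siNT, and Cbfa2t2 at 609.6 kb for siID4 and 1410 kb for siNT.

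The limit of 500 kb passed nearest to a summit at Cbfa2t3. The summit farthest out but still inside it was the siNT summit of the Runx1t1 pair, at 377.7 kb. Just outside it lay a shared pair 514.6 kb from Cbfa2t3, on base 122110498 in the siID4 list (score 8.44, rank 341) and 122110503 in the siNT list (score 7.82, rank 252). It fell inside Zfp469, a zinc finger gene, as did an siID4 summit 560.6 kb from Cbfa2t3 with a score of 6.60. None of these is counted with the ETO family genes.

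**Figure D3:**
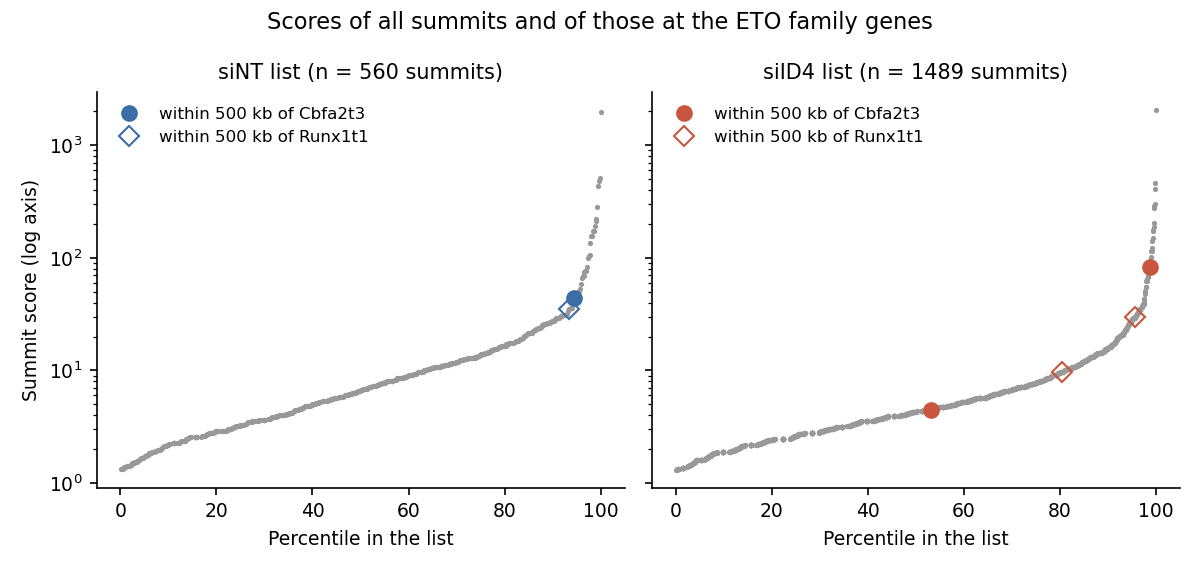
Score of every summit (vertical axis, log scale) against its percentile in the siNT list (left, 560 summits) and the siID4 list (right, 1489 summits), with the summits within 500 kb of Cbfa2t3 (filled circles) and Runx1t1 (open diamonds) marked. In the siNT list the marked summits score 44.4 and 35.0, at percentiles 94.5 and 93.5; in the siID4 list they range from 4.47 to 82.2, with the Cbfa2t3 gene-body summit highest.

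The lists differ in length, and percentiles of the same site differed between them. Of the 290 sites shared by the lists, 260 stood at a higher percentile in the siID4 list, as did those of Cbfa2t3 and Runx1t1. How far list length accounts for this was not tested. The shared sites were therefore ranked among themselves. The Cbfa2t3 site was number 18 by siID4 score and number 31 by siNT score. The Runx1t1 site was number 60 by siID4 score and, tied, number 36.5 by siNT score. The Cbfa2t3 site thus stood 13 places higher in siID4 and the Runx1t1 site 23.5 places lower.

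Both shifts were smaller than the median over all shared sites, but that of Runx1t1 was larger than the median over sites of high rank. The median shift in either direction was 25 places over the 290 sites, and 15.5 places over the 92 sites that were among the first 75 in either list (this cut at 75 was made with the values in view). A shift smaller than that of Cbfa2t3 was seen at 33.4% of shared sites and one smaller than that of Runx1t1 at 46.2%. With 1 list per siRNA there is no replicate spread against which to test them, so no change in HEB occupancy at either gene can be read from the ranks. Both offsets lay within the interquartile range over shared sites, 3 to 33.8 bp. They were 11 bp at Cbfa2t3 and 23 bp at Runx1t1, against a median of 13 bp.

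**Figure D4:**
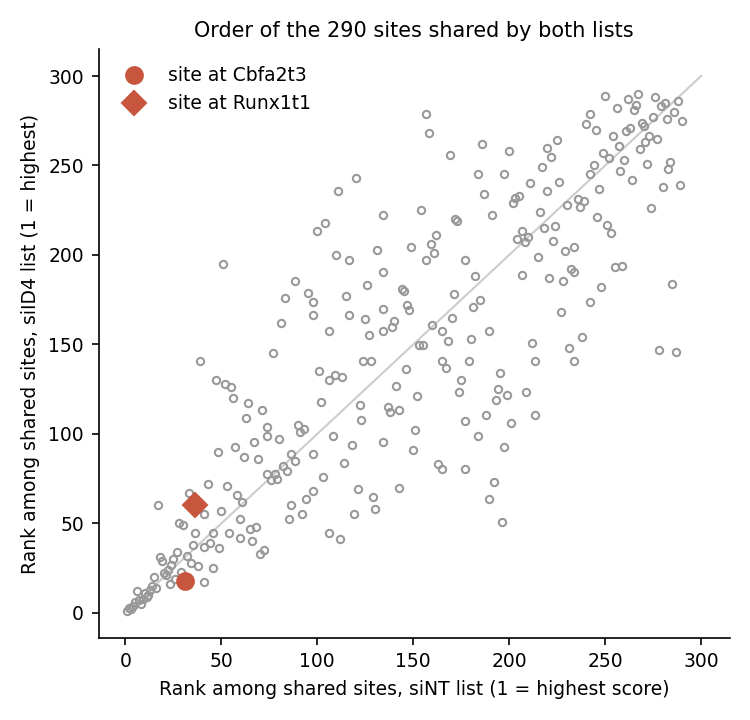
Rank of the 290 shared sites among themselves by siNT score (horizontal axis) and siID4 score (vertical axis), where 1 is the highest score and the line marks equal ranks. The Cbfa2t3 site (circle) lies below the line at 31 and 18, and the Runx1t1 site (diamond) above it at 36.5 and 60.

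The genes most like Cbfa2t3 were sought among the 104 genes with a summit inside in both lists, by distance in percentile points between their highest-scoring summits over the 2 lists. They were Sema5a, a semaphorin gene, at 0.490 points, Pcolce, whose product enhances procollagen processing, at 0.913 points, and Asap1, a gene of an Arf GTPase-activating protein, at 1.02 points. Sema5a ranked 25 in the siID4 list and 30 in the siNT list. Pcolce ranked 31 and 35, and Asap1 35 and 33. Their summits in the 2 lists lay 17, 32 and 68 bp apart. The likeness is of rank in 2 lists that share their inputs. Of the 4 genes, Cbfa2t3 had the highest siID4 rank and Sema5a the highest siNT rank (30, against 32 for Cbfa2t3).

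**Figure D5:**
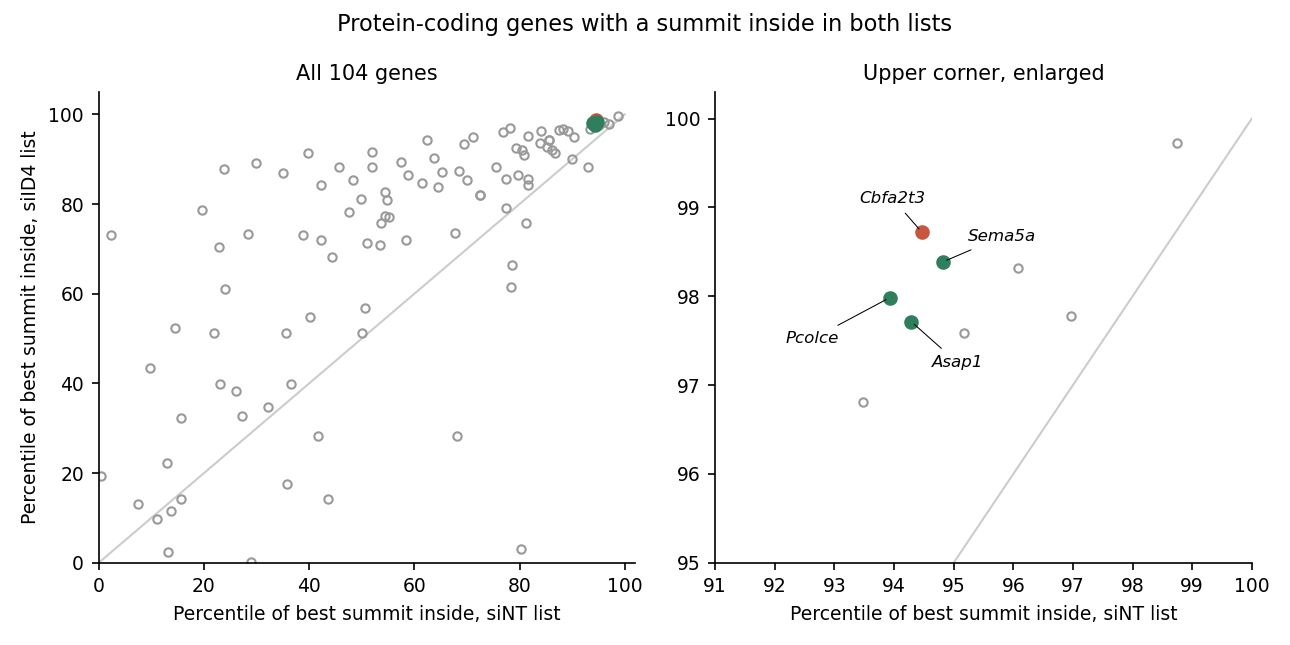
Percentile of the highest-scoring summit inside each of 104 protein-coding genes in the siNT list (horizontal axis) and the siID4 list (vertical axis), with the line of equal percentiles and, at the right, the upper corner enlarged. Cbfa2t3 (red) stands at 94.5 and 98.7, and Sema5a, Pcolce and Asap1 (green) are the 3 genes nearest to it.

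A list of 34 genes whose products work with ETO proteins or control their E-protein partners was examined in the same way. In the siID4 list 2 of the 34 genes had a summit within 100 kb (5.88%, against 10.1% of all protein-coding genes). The siNT list linked 1 of them (2.94%, against 5.16%). Counts this small in a list that is not complete are not read as above or below the background. The median distance to the nearest summit was 620 kb in the siID4 list and 2450 kb in the siNT list. Over all protein-coding genes these medians were 1135 and 2356 kb.

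Of the 11 corepressor and deacetylase genes reported, 0 had a summit within 100 kb in either list, against 11.3% of all protein-coding genes. A count of 0 among 11 genes is not read as below that share. Ncor1, the gene of a corepressor that ETO proteins recruit, had its nearest summit 716 kb away in siID4 and 717 kb in siNT. Hdac3, a deacetylase of corepressor complexes, had its nearest 13194 kb away in both. These genes are not typical of the class. Its nearest members were Tbl1xr1 in siID4 (246 kb) and Sin3a in siNT (293 kb). The class medians were 656 kb in siID4 and 1693 kb in siNT, against 1135 and 2356 kb over all protein-coding genes.

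Of the 9 helix-loop-helix partners and their cofactors, Tcf12 contained an siID4 summit on base 71888592 of chromosome 9 (score 6.60, rank 458.5) and was not linked in the siNT list. Tal1, Lyl1, Lmo2 and Ldb1, whose products form complexes with Eto2 in blood cells, had no summit within 100 kb in either list. The nearest lay between 270 kb (Lmo2) and 2946 kb (Tal1) in siID4, and between 2946 kb (Tal1) and 13554 kb (Lyl1) in siNT. Of the 10 other DNA-binding partners none was linked; Runx1, the fusion partner of Runx1t1 in leukaemia, had its nearest summit 1872 kb away in siNT and 1873 kb in siID4. Beside these class counts, 11.3% of all protein-coding genes had a summit of either list within 100 kb. Counts in classes this small are not read as above or below that share. Of the 4 ID genes only Id3 was linked. Its shared site lay 3242 bp from the gene in siID4 (score 35.4, rank 48.5) and 3259 bp in siNT (score 16.5, rank 115), and a second siID4 summit lay 33075 bp away (score 5.81). By score, the Cbfa2t3 site ranked above each summit linked to these 34 genes in its list.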

How the data were processed

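HEB ChIP-seq was carried out in 3 siNT and 3 siID4 libraries with 4 inputs. The authors deposited 1 list of 1 bp summits per siRNA with a score that is read as −log10 of a q value, since the lowest scores, 1.32 and 1.31, lie close to −log10 of 0.05 (1.30). Per the submitters' processing notes, the build was mm10 and SAMtools was among the tools. The sources used here do not name the aligner, the peak caller, any filters or the way libraries were combined. Depth per library is unknown. Groups came from the sample titles.

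Positions are 1-based. Gene bodies came from a RefSeq table of GRCm38.p6; neither a genome nor protein sequences were used here, so E-boxes at summits and the 3 proteins were not examined, although both were intended. Promoter windows of 250 bases came from a RefSeq table. Summits within 200 bp were called shared. Counts, ranks and shares were computed with Python 3.11.15, pandas 2.3.3 and NumPy 2.4.6 and tested on simulated data. No significance test was made. Other settings changed the distance (100 kb, 1 Mb), the sharing limit (50 and 1000 bp), the minimum score, merging of summits within 500 bp and the genes counted. Genes named were the 3 members, the partner genes with a summit within 100 kb, the nearest protein-coding gene to each summit and the 3 genes most like Cbfa2t3; other partner genes, H3f3b and flanking genes were named after their values were seen. Results on 1 gene of the partner list are not reported here, and its counts leave that gene out. Members, partner list and rules were chosen with earlier results of these data known.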

Additional observations from a re-analysis of the deposited data

How the results depend on the processing

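With a distance of 1 Mb, Cbfa2t3 had 2 siNT and 4 siID4 summits and Cbfa2t2 had 2 siID4 summits. With 100 kb, Cbfa2t3 had 1 siID4 summit and Runx1t1 had 0 in each list. With a score of at least 5, Cbfa2t3 had 1 siID4 summit, because the one inside Acsf3 was left out. On assembled chromosomes alone the Cbfa2t3 summit stood at percentile 96.3 in siNT and 99.4 in siID4. Merging summits within 500 bp, leaving out chromosome 11 beyond 110 Mb and the other sharing limits changed these results by no more than 1.5 times for a count or the 95% binomial interval (Clopper-Pearson) for a percentile.

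The share of genes with a summit inside was, over all annotated genes, 0.441% in siNT, 1.16% in siID4 and 0.296% in both. With a score of at least 5 it was 0.443%, 0.832% and 0.311%, and for genes of 50 to 200 kb, added after seeing the data, 1.59%, 4.02% and 1.04%. The share with a summit within 500 kb was 16.8% (siNT) and 29.0% (siID4) over all annotated genes, and 13.7% and 19.3% with a score of at least 5; within 100 kb it was 5.16% and 10.1%. The shared sites at Cbfa2t3 and Runx1t1 were found under each setting for sharing. No paired analysis was possible because each siRNA has 1 list and no values per library, and for the same reason no replicate could be left out. Neither depth nor input coverage nor mappability was examined, so a missing summit at these genes has no detection limit.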
